A study of Coturnix japonica with 16 samples.

Results

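The 8 genes described here are APOB, MTTP, LPL, VLDLR, RBP4, TF, ZP1 and TCN2. Their products are plasma carriers of lipid, retinol, iron and vitamin B12, proteins that load, hydrolyse or take up that lipid, and an egg envelope protein. The genes were taken by symbol from the 20308 genes measured in the liver of Japanese quail (Coturnix japonica). RNA came from the left liver lobe of 16 birds aged 12 weeks, kept on 8 hours of light a day. After a fast of 16 hours each bird received 1 oral dose, 4 mL/kg, into the crop. The 6 solvent birds received corn oil, 5 birds received ethinylestradiol at 0.5 mg/kg and 5 received it at 5 mg/kg, with corn oil as the solvent. Ethinylestradiol is a synthetic estrogen. The labels give no sex and no interval between dosing and sampling.

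In a laying hen, estrogen makes the liver export very-low-density lipoprotein and vitellogenin, which travel in plasma to the growing oocyte. APOB is the structural protein of that lipoprotein, and MTTP loads lipid onto it. Lipoprotein lipase (LPL) hydrolyses triglyceride of plasma lipoproteins in other tissues. VLDLR is the receptor through which the chicken oocyte takes up both yolk precursors. RBP4, transferrin (TF) and transcobalamin (TCN2) carry retinol, iron and vitamin B12, and ZP1 is an envelope protein that the avian liver makes under estrogen and releases into plasma.

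None of the 8 genes passed the test at either dose. The largest peaks, of TF at 0.5 mg/kg and of LPL, ZP1 and TCN2 at 5 mg/kg, lay in single birds and not across a dose group. LPL at 0.5 mg/kg did not rest on a single bird, since 3 of 5 birds exceeded every solvent bird. Against solvent, 7 of the 8 fitted differences were above 0 at 5 mg/kg and 6 of the 8 at 0.5 mg/kg. Their median log2 difference was 0.37 at 5 mg/kg and 0.32 at 0.5 mg/kg, beside medians over all 13748 genes tested of -0.002 and -0.018. Both comparisons share the solvent birds, and the members were chosen with earlier results of these data known. These counts and medians are therefore a description and no test, and the share of all genes above 0 was not counted. With 1 dosed bird left out, MTTP (-0.22) and RBP4 (-0.07) fell below 0 at 5 mg/kg, and TF (-0.10) and ZP1 (-0.01) at 0.5 mg/kg. Of all genes, 0.0436% were called at 5 mg/kg and 0% at 0.5 mg/kg, so 0 of 8 members did not stand out from that background. The test was edgeR's quasi-likelihood test with an adjusted p under 0.05, and its unadjusted p was under 0.05 for 3 members and 1342 genes at 5 mg/kg and for 1 member and 1134 genes at 0.5 mg/kg. Other tools called 160 (DESeq2) and 2 genes (limma-voom) at 5 mg/kg, and 42 and 0 genes at 0.5 mg/kg, with 0 members among them. DESeq2 gave no p for TCN2 and, at 0.5 mg/kg, no adjusted p for VLDLR.

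All 8 genes passed the filter on low counts. Library totals ran from 15172994 to 46192717 estimated counts. VLDLR had the fewest, with 60 to 242 counts in a library, and TF the most, with 108441 to 1310000. Levels are given as CPM, counts scaled to the size of the library and not divided by transcript length, so they are compared between birds and not between genes. Markers of hepatocytes summed to between 85099 and 220960 CPM, with all 7 of the listed markers that had a name present. RNA of whole liver cannot tell fewer cells of a type from less RNA per cell. P-values measure the spread between these birds.

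**Figure D1:**
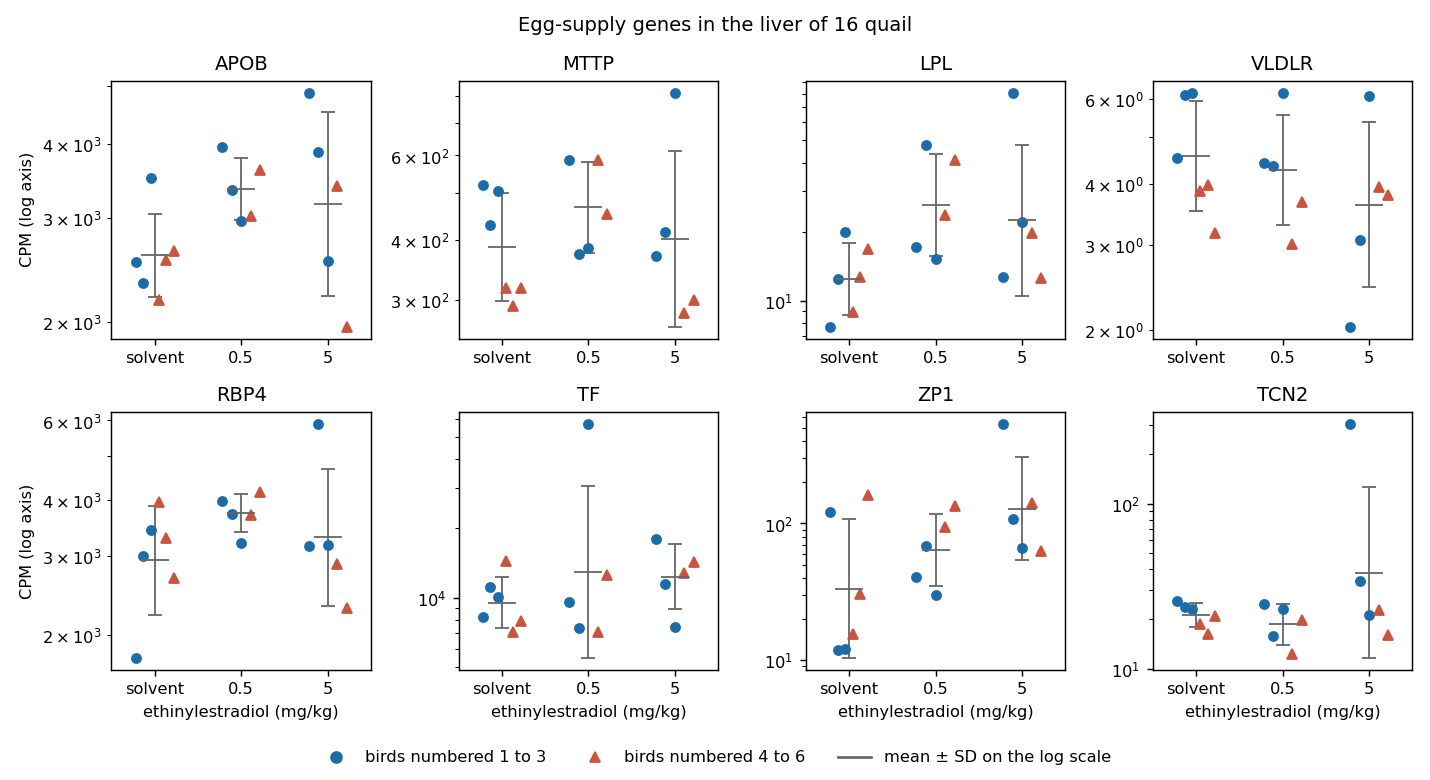
Level of each gene in every bird (CPM on a log axis) by dose, with circles for birds numbered 1 to 3, triangles for birds numbered 4 to 6 and bars for the mean ± SD on the log scale. Dosed and solvent birds overlap for all 8 genes, and 1 bird stands far above its group for TF at 0.5 mg/kg (56944) and for LPL (80.7), ZP1 (537) and TCN2 (304) at 5 mg/kg.

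APOB, on chromosome 3, lay between 2183 and 3498 CPM in solvent birds, with a median of 2537. The birds at 0.5 mg/kg held 3951, 3349, 2958, 3026 and 3609 CPM, and at 5 mg/kg 4880, 3876, 2536, 3395 and 1962 CPM. All 5 birds at 0.5 mg/kg were above the solvent mean, but only 2 exceeded every solvent bird, and at 5 mg/kg the birds spread over both sides of the solvent range. Group means were 2621 ± 461 (SD, n = 6), 3379 ± 413 (n = 5) and 3330 ± 1141 CPM (n = 5). The log2 difference from solvent was 0.37 ± 0.21 (SE) at 0.5 mg/kg (edgeR adjusted p = 0.676) and 0.35 ± 0.21 at 5 mg/kg (adjusted p = 0.602). Intervals of 95% ran from -0.08 to 0.81 and from -0.10 to 0.79.

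MTTP, on chromosome 4, encodes the large subunit of the microsomal triglyceride transfer protein. Solvent birds held 291 to 521 CPM with a median of 374. Birds at 0.5 mg/kg held 587, 373, 385, 586 and 453 CPM, and those at 5 mg/kg 370, 415, 811, 281 and 300 CPM. The groups overlapped, and replicate 3 at 5 mg/kg was the only bird of its group above the solvent range. MTTP differed from solvent by 0.26 ± 0.26 on the log2 scale at 0.5 mg/kg (edgeR adjusted p = 0.825) and by 0.13 ± 0.26 at 5 mg/kg (adjusted p = 0.898). Without replicate 3 the second value turned to -0.22.

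LPL, on the Z chromosome, is mainly a product of fat, muscle and heart. Solvent birds held 7.68 to 19.9 CPM with a median of 12.5. The 5 birds at 0.5 mg/kg held 17.2, 47.7, 15.2, 23.6 and 41.2 CPM, and those at 5 mg/kg held 12.7, 80.7, 22, 19.8 and 12.5 CPM. All 10 dosed birds were at or above the solvent median, 3 at 0.5 mg/kg and 2 at 5 mg/kg exceeded every solvent bird, and replicate 2 at 5 mg/kg was 4.8 times the median of the other birds. Group means were 13 ± 4.63 (SD, n = 6), 29.0 ± 14.7 (n = 5) and 29.5 ± 28.9 CPM (n = 5). The log2 difference was 1.15 ± 0.46 at 0.5 mg/kg, with a 95% interval from 0.18 to 2.13 (edgeR adjusted p = 0.554). With 1 bird left out it ran from 0.90 to 1.32 at that dose. At 5 mg/kg it was 1.19 ± 0.46, from 0.21 to 2.16 (edgeR adjusted p = 0.397), and 0.36 without replicate 2. The 3 adipocyte markers with a name, ADIPOQ, PLIN1 and CIDEC, summed to 34.3 CPM in that bird, within a range of 15 to 52.3 CPM over the birds at 5 mg/kg and 26.9 to 43.7 CPM in solvent birds.

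VLDLR, also on Z, was the gene with the fewest counts. In solvent birds it held 3.17 to 6.16 CPM with a median of 4.25. Its values were 4.43, 4.35, 6.17, 3.01 and 3.68 CPM at 0.5 mg/kg, and 2.03, 3.06, 6.08, 3.94 and 3.8 CPM at 5 mg/kg. The groups overlapped, with 2 birds at 5 mg/kg and 1 at 0.5 mg/kg below every solvent bird and 1 bird at 0.5 mg/kg above. The log2 differences were -0.10 ± 0.26 (edgeR adjusted p = 0.949) and -0.30 ± 0.26 (adjusted p = 0.745). VLDLR was the 1 member whose fitted difference was below 0 at 5 mg/kg.

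RBP4, on chromosome 6, is the retinol carrier that hepatocytes secrete. Solvent birds held 1779 to 3962 CPM with a median of 3142. Birds at 0.5 mg/kg held 3976, 3713, 3206, 3705 and 4153 CPM, and those at 5 mg/kg 3161, 5896, 3177, 2872 and 2298 CPM. All 5 birds at 0.5 mg/kg lay above the solvent mean and 2 above every solvent bird, while at 5 mg/kg only replicate 2 lay above the solvent range. The log2 differences were 0.31 ± 0.23 (edgeR adjusted p = 0.759) and 0.20 ± 0.23 (adjusted p = 0.809). Without replicate 2 the value at 5 mg/kg was -0.07.

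TF, on chromosome 9, encodes the iron carrier known in the chicken as transferrin in plasma and ovotransferrin in egg white. Solvent birds held 7102 to 14376 CPM with a median of 9147. Dosed birds held 9583, 7364, 56944, 7127 and 12565 CPM at 0.5 mg/kg, and at 5 mg/kg 18057, 11469, 7488, 12781 and 14350 CPM. Replicate 3 at 0.5 mg/kg was 5.68 times the median of the other birds, and TF took 5.42% of all counts of that library. The other dosed birds overlapped with solvent, apart from replicate 1 at 5 mg/kg, which lay above it. The log2 differences were 0.93 ± 0.47 at 0.5 mg/kg (edgeR adjusted p = 0.64) and 0.39 ± 0.47 at 5 mg/kg (adjusted p = 0.823). Without replicate 3 the value at 0.5 mg/kg was -0.10.

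TCN2, on chromosome 15, carries vitamin B12 to cells. Solvent birds held 16.3 to 25.9 CPM with a median of 21.9. Birds at 0.5 mg/kg held 24.7, 15.7, 23.0, 12.3 and 19.8 CPM, and those at 5 mg/kg 304, 34.1, 21.2, 22.7 and 16.1 CPM. Replicate 1 at 5 mg/kg was 14.4 times the median of the other birds, replicate 2 was the only other bird above the solvent range at that dose, and the groups overlapped. At 5 mg/kg TCN2 averaged 79.7 ± 126 CPM (SD, n = 5) against 21.4 ± 3.52 in solvent birds (n = 6). The log2 difference was 1.90 ± 0.61, a 3.73-fold ratio with a 95% interval from 0.60 to 3.20 on the log2 scale (edgeR adjusted p = 0.302). It was 0.14 without replicate 1, and 0.83 with limma-voom. The lower dose gave -0.16 ± 0.61 (edgeR adjusted p = 0.959).

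ZP1, on chromosome 5, was spread widely in the solvent birds too, which held 11.8 to 162 CPM with a median of 23.1. At 0.5 mg/kg the birds held 40.5, 68.5, 29.7, 94.9 and 134 CPM, and at 5 mg/kg 537, 107, 66.3, 141 and 63.3 CPM. All 10 dosed birds lay above the solvent median, yet only replicate 1 at 5 mg/kg lay above every solvent bird, since solvent replicates 1 and 6 held 122 and 162 CPM. Group means were 59.0 ± 65.9 (SD, n = 6), 73.6 ± 42.4 (n = 5) and 183 ± 201 CPM (n = 5). At 5 mg/kg the log2 difference was 1.63 ± 0.75, a 3.10-fold ratio with a 95% interval from 0.04 to 3.22 (edgeR adjusted p = 0.503). It was 0.68 without replicate 1 of that dose and 2.24 without solvent replicate 6. The lower dose gave 0.32 ± 0.75 (edgeR adjusted p = 0.941), and 0.93 without solvent replicate 6.

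**Figure D2:**
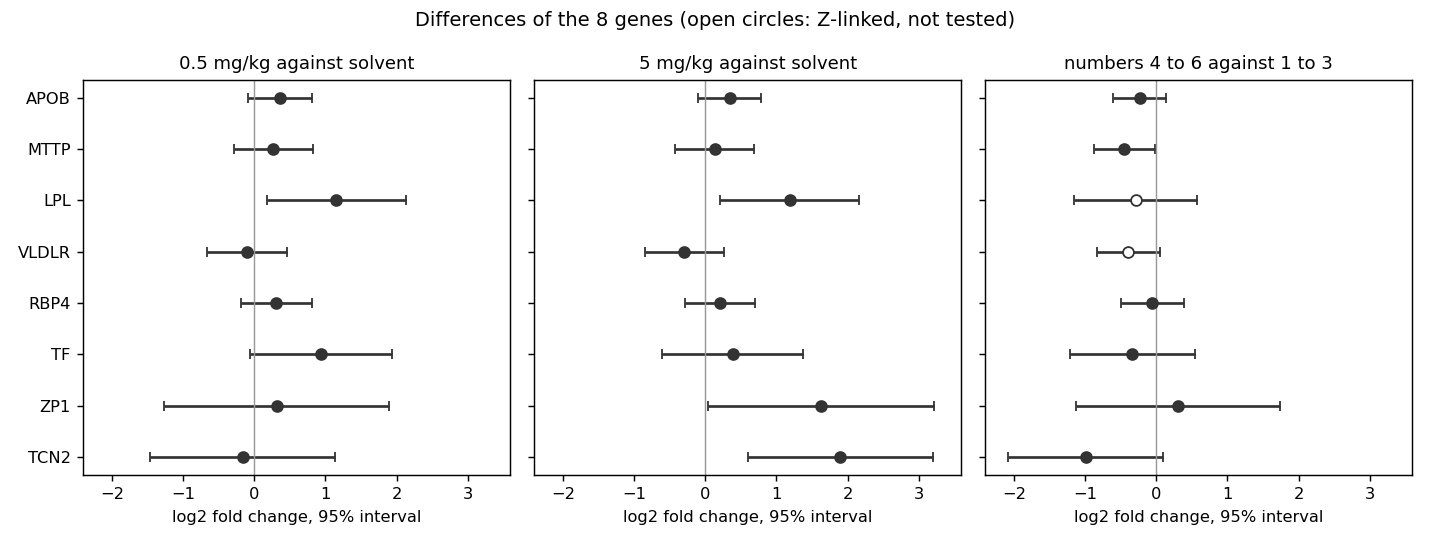
Fitted log2 difference of each gene with its 95% interval for the 2 doses against solvent and for birds numbered 4 to 6 against 1 to 3. Intervals of LPL at both doses and of ZP1 and TCN2 at 5 mg/kg lie above 0 and that of MTTP between numbers below 0, before adjustment over all genes.

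Between the doses, TCN2 differed most, by 2.06 ± 0.66 on the log2 scale at 5 against 0.5 mg/kg (edgeR adjusted p = 0.55). ZP1 differed by 1.31 ± 0.79 (adjusted p = 0.768), TF by -0.55 ± 0.49 (adjusted p = 0.861) and LPL by 0.03 ± 0.48 (adjusted p = 0.992). No member passed edgeR's test, and 0% of all genes did. An unadjusted p under 0.05 was found for 1 of the 8 members and 997 genes, and DESeq2 called 26 genes and limma-voom 0. Without replicate 1 at 5 mg/kg TCN2 differed by 0.30 and ZP1 by 0.36, and TF turned to 0.49 without the bird at 0.5 mg/kg that held 56944 CPM.

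The highest level of each gene among the 16 birds fell in 4 dosed birds, all numbered 1 to 3. Of the 16 birds 10 were dosed, and how many of all genes were highest in these 4 birds was not counted. Replicate 1 at 5 mg/kg held the highest APOB, ZP1 and TCN2 together with the lowest VLDLR. Replicate 2 of that dose held the highest LPL and RBP4, replicate 3 the highest MTTP, and replicate 3 at 0.5 mg/kg the highest TF and VLDLR. For VLDLR this was no peak, since its 6.17 CPM was close to 6.16 and 6.1 CPM in solvent replicates 3 and 2. The coefficient of variation at 5 mg/kg exceeded that in solvent birds for 7 of the 8 members, and for 55.8% of all genes. At 0.5 mg/kg this held for 4 of the 8, and for 41.4% of all genes.

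**Figure D3:**
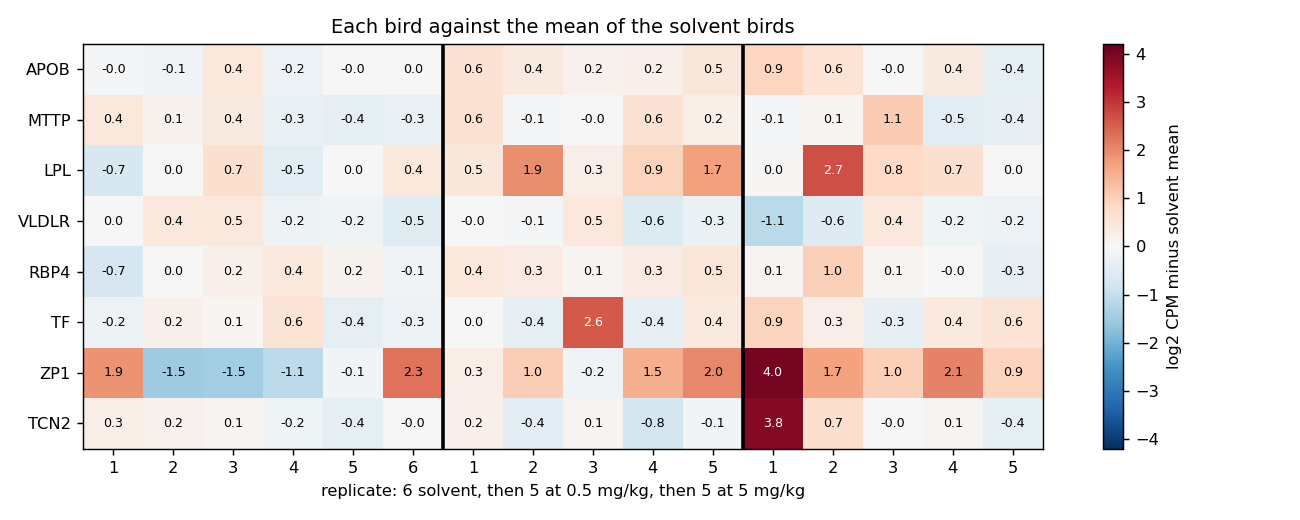
Log2 CPM of each gene in each bird minus the mean of the solvent birds, with columns for the 16 birds in dose order. High values of TCN2 and ZP1 share a column at 5 mg/kg, while the high value of TF stands in another at 0.5 mg/kg.

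Genes next to each member were read in the bird that held the member's highest level. The share of all genes that lay above their range elsewhere in those birds was not counted. Where TCN2 held 304 CPM, its neighbours SLC35E4 and PES1 held 0.775 and 79.3 CPM, inside their ranges of 0.607 to 1.73 and 46.6 to 97.5 in the other birds. Where ZP1 held 537 CPM, PRPF19 and LOC107314177 beside it held 54.7 and 97.5 CPM, inside their ranges of 42.6 to 67.1 and 48.7 to 113. Beside the TF peak, SRPRB held 81.0 CPM, above its range of 54.0 to 78.3, and beside the MTTP peak TRMT10A held 19.1 CPM, above its range of 13.1 to 17.9. Beside the RBP4 peak FFAR4 held 98.3 CPM, above its range of 32 to 89.6, and PDE6C on the other side held 0.363 CPM, inside 0.15 to 0.433. VLDLR had no peak. In the bird with its highest level LOC107306096 held 0.348 CPM, above a median of 0.0782 and a highest value of 0.161 elsewhere. The neighbours of APOB and LPL stayed within their ranges, LDAH at 23.1 CPM beside APOB (16.6 to 38.3) and LOC107306436 at 1.36 CPM beside LPL (0.351 to 1.71).

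Cell type markers were summed in the same birds. In the bird with the ZP1 and TCN2 peaks, the 4 oviduct and ovary markers with a name summed to 13.9 CPM, second among the 16 birds. The range in solvent birds was 5.19 to 21.4. ZP2, itself an egg envelope gene, made 11 CPM of that bird's sum. FSHR (0.775 CPM) and AMH (2.11 CPM) were at their lowest of all birds there, and BMP15 held 0.0267 CPM. Endothelial markers, 7 of 7 with a name, summed to 116 CPM there, inside the solvent range of 89.4 to 121. CDH5 (38.9 CPM) and STAB2 (24.9 CPM) were at their highest of all birds there, and TEK (13.8) was above its median. KDR (18.7), EGFL7 (4.14), PECAM1 (9.22) and SOX18 (6.42) were below their medians there. Macrophage markers, 4 of 8 with a name, summed to 203 CPM there and to 231 CPM in the bird with the TF peak, inside the solvent range of 136 to 289. In the latter bird MARCO was at its highest of all birds (152 CPM). CSF1R (31.5) and C1QA (30.4) were above their medians there, and C1QB (17.6) was below its median. In the same bird the 2 of 7 erythroid markers with a name summed to 333 CPM, above the solvent range of 80.3 to 269. Replicate 4 at 0.5 mg/kg, with TF at 7127 CPM, held the highest level of both and the highest sum, 342 CPM. Muscle markers, 5 of 6 with a name, summed to at most 2.27 CPM at 5 mg/kg, and MYL1 was at 0 in every library. The bird with the LPL and RBP4 peaks lay outside the solvent range for 5 of these lists. Its hepatocyte markers summed to 179642 CPM, above the solvent range of 85099 to 173640, while a 0.5 mg/kg bird reached 220960. ALB made 118816 CPM of that bird's sum. FGA, FGB and FGG were at their highest there, and AHSG at 3610 CPM was below its median of 5337. In the same bird the endothelial (81.1 CPM), macrophage (126), erythroid (35.9) and oviduct and ovary markers (4.26) summed to less than in any solvent bird. Other dosed birds had lower endothelial (to 54.2) and macrophage sums (to 92.0), and 126 was the macrophage median at 5 mg/kg. What part these cells have in the members' levels was not tested.

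**Figure D4:**
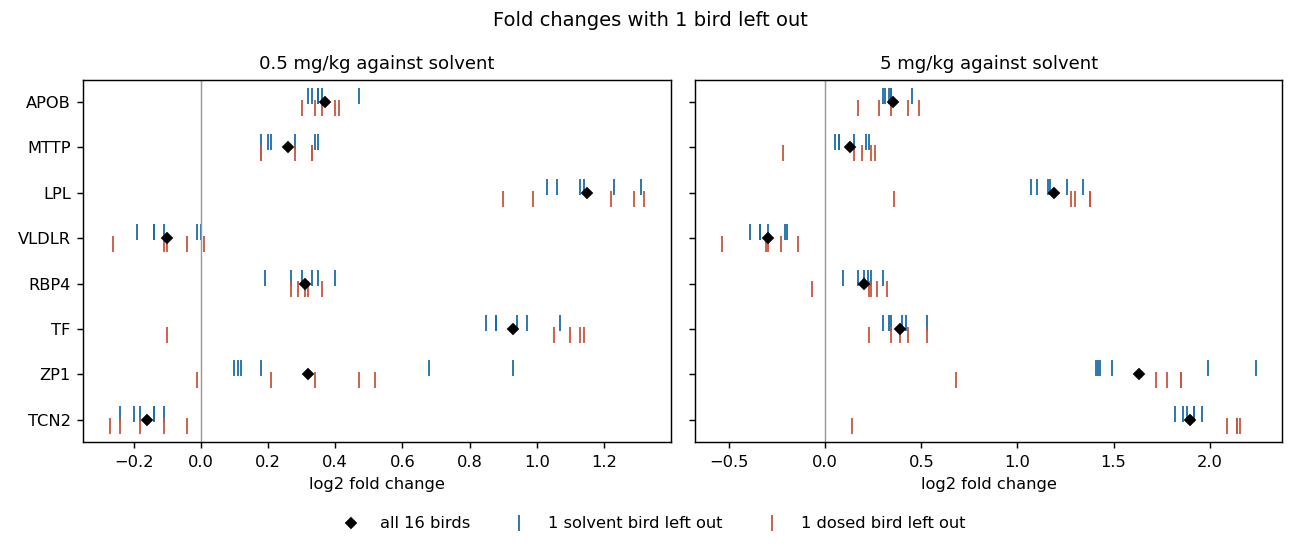
Log2 difference from solvent of each gene with all 16 birds (diamonds) and with 1 solvent or 1 dosed bird left out (ticks). The value of TF at 0.5 mg/kg and those of TCN2, LPL and ZP1 at 5 mg/kg each move far when 1 dosed bird is left out.

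LPL, VLDLR, RBP4 and ZP1 are listed in 2 transcript rows each, which share reads, so that counts of a row are less certain than those of the gene. RBP4 row 2 averaged 1128 ± 371 CPM without the estrogen (SD, n = 6), against 1988 ± 624 at 0.5 mg/kg and 1771 ± 328 at 5 mg/kg (n = 5 each). Row 1 held 1894 ± 606, 1762 ± 518 and 1710 ± 1574 CPM. Row 1 took from 15.8% to 74.8% of the gene's counts in a bird, so the rows divided the gene differently from bird to bird, and in replicate 2 at 5 mg/kg, the bird with the highest RBP4, row 1 held 4410 of 5896 CPM. In a fit over all 24404 rows tested, RBP4 row 2 differed from solvent by 0.78 ± 0.26 on the log2 scale at 0.5 mg/kg (edgeR adjusted p = 0.883) and by 0.64 ± 0.26 at 5 mg/kg (edgeR adjusted p = 0.873). Row 1 differed by -0.14 ± 0.47 and -0.16 ± 0.47. No row of any member was called at either dose, and 0% of all rows were, while an unadjusted p under 0.05 was found for 1244 rows at 5 mg/kg and 1184 at 0.5 mg/kg.

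**Figure D5:**
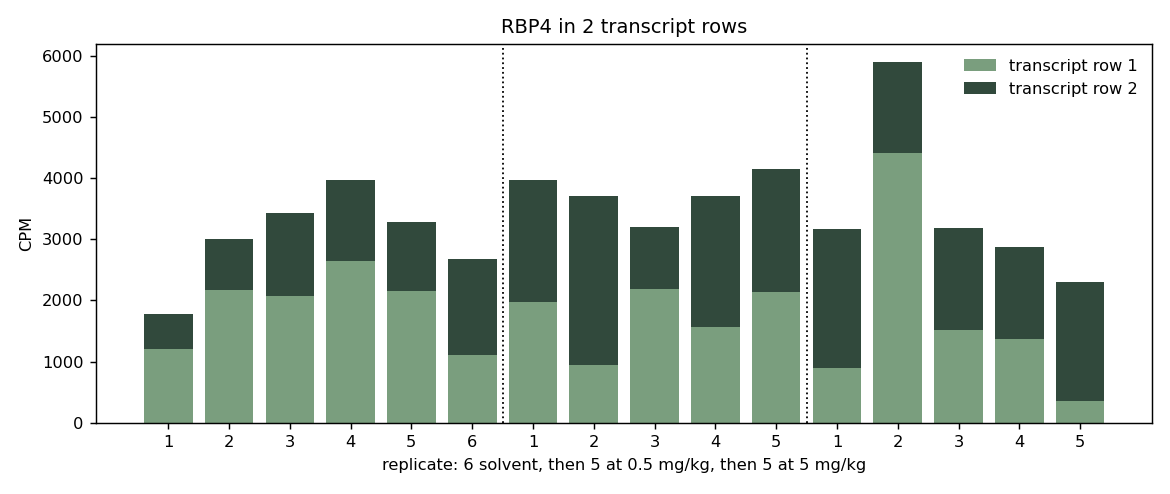
CPM of RBP4 in each bird, divided into its 2 transcript rows, in dose order. The lower segment (row 1) ranges from 364 to 4410 CPM at 5 mg/kg and the upper one (row 2) from 1486 to 2261 CPM.

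ZP1 row 1 held a median of 79.3% of the gene's counts in solvent birds, 93.4% at 0.5 mg/kg and 90.7% at 5 mg/kg. The lowest share at 0.5 mg/kg, 87.8%, was above the highest in solvent birds, 86.7%, whereas shares at 5 mg/kg, from 81.4%, overlapped with solvent. How many of all genes have row shares that separate in this way was not counted. ZP1 row 1 itself differed from solvent by 1.82 ± 0.80 on the log2 scale at 5 mg/kg (edgeR adjusted p = 0.937), and row 2 by 0.41 ± 0.83. At 0.5 mg/kg row 1 differed by 0.50 ± 0.78 and row 2 by -1.16 ± 0.86. LPL row 1 held medians of 85.6%, 91.1% and 88.7%, with overlapping ranges. VLDLR row 1 was listed at 0 in at least 1 bird at each dose, and its share ran from 0 to 43.5%, at the low depth given above. The birds at 0 had library totals of 15172994 and 24147852 at 0.5 mg/kg and 15825748 at 5 mg/kg. Totals in solvent birds ran from 24020961 to 38156083, and the part of depth in these zeros was not tested.

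Birds were also compared by the number in their labels. Birds numbered 1 to 3 (9 birds, 3 of each dose group) were set against those numbered 4 to 6 (7 birds, 3 solvent, 2 and 2). The labels do not say what the numbers mean. The division after 3 was taken from Z-linked genes: the median of 611 such genes, as a log2 deviation, lay at 0.15 to 0.27 in birds numbered 1 to 3 and at -0.32 to -0.16 in the others. The Z-linked LPL and VLDLR are therefore described and not tested. Their fitted log2 differences, 4 to 6 against 1 to 3, were -0.29 and -0.39, beside a median of -0.46 over the 611 other Z-linked genes. VLDLR held 3.01 to 3.98 CPM in birds 4 to 6 and 2.03 to 6.17 in birds 1 to 3.

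Of the 6 members on other chromosomes, 0 were called, beside 1.23% of 13973 genes, and 5 of the 6 differences were below 0. Calls were made for 0.124% of 12940 genes on other placed sequences, which is the background of these 6 members. The 25% called of the 611 Z-linked genes is no separate result, since the division was taken from Z-linked genes. The counts over all genes in this paragraph include them. MTTP was the 1 member with an unadjusted p under 0.05, beside 1327 genes, and DESeq2 and limma-voom called 320 and 173 genes and no member. MTTP averaged 489 ± 142 CPM in birds 1 to 3 (SD, n = 9) and 364 ± 114 in birds 4 to 6 (n = 7). Its log2 difference was -0.45 ± 0.20 (edgeR adjusted p = 0.491). In solvent birds MTTP lay at 430 to 521 CPM in the lower numbers and 291 to 318 in the higher, and at 5 mg/kg at 370 to 811 and 281 to 300, with no overlap at either. At 0.5 mg/kg the numbers overlapped. The share of all genes without such overlap was not counted, and groups this small can separate by chance. TCN2 differed by -0.99 ± 0.51 (edgeR adjusted p = 0.578), by -0.42 without replicate 1 at 5 mg/kg, the bird of its 304 CPM peak, and by -0.38 in the solvent birds alone.

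Whether a dose difference itself differed between the number classes was tested in 1 fit of 6 cells. No member was called, 0% of 14564 genes were at either dose, and unadjusted p was under 0.05 for 0 members and for 611 genes at 5 mg/kg and 451 at 0.5 mg/kg. DESeq2 called 16 and 4 genes and limma-voom 0 and 0. The members with the lowest p were TCN2 at 5 mg/kg, -2.26 ± 1.06 (edgeR adjusted p = 0.991), MTTP at 0.5 mg/kg, 0.87 ± 0.41 (edgeR adjusted p = 1), and RBP4 at 5 mg/kg, -0.94 ± 0.46 (edgeR adjusted p = 0.991). Without replicate 1 at 5 mg/kg the TCN2 value was -0.14, and without replicate 2 that of RBP4 was -0.57. Within birds 1 to 3, LPL differed from solvent at 5 mg/kg by 1.54 and within birds 4 to 6 by 0.32, and ZP1 by 2.28 and 0.55. TCN2, with its peak bird among those numbered 1 to 3, differed by 2.31 and 0.05, and RBP4 by 0.58 and -0.37. At 0.5 mg/kg the order was the opposite for ZP1 (-0.08 and 0.72) and MTTP (-0.12 and 0.75), and LPL was also larger within birds 4 to 6 (1.34). RBP4 kept its order there (0.41 and 0.24). The interaction, birds 4 to 6 against 1 to 3, was below 0 for 6 of the 8 members at 5 mg/kg and for 3 at 0.5 mg/kg. Cells of 2 birds make these values imprecise.

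Over the 16 birds the members did not move as 1 group. Their 28 pairs had Pearson's r from -0.75 to 0.72 with a median of 0.06. LPL and RBP4 had r = 0.72 (permutation p = 0.00193, adjusted p = 0.027 over 28 pairs) and Spearman's rho = 0.60 (permutation p = 0.0155, adjusted p = 0.145). Without the 2 birds farthest from the median of LPL the r was 0.55, without the 2 farthest in RBP4 it was 0.38, and it was 0.86 in birds 1 to 3 and 0.33 in birds 4 to 6. VLDLR and ZP1 had r = -0.75 (permutation p = 0.00098, adjusted p = 0.027) and rho = -0.68 (permutation p = 0.00521, adjusted p = 0.145). Without the 2 birds farthest from the median of VLDLR the r was -0.62, without the 2 farthest in ZP1 it was -0.55, and it was -0.86 and -0.47 within the number classes. These were the 2 pairs past 0.05 on r, and 0 pairs were past it on both measures. The permutations ran over all 16 birds regardless of dose and number class, so differences between those groups enter r and p.

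The genes most like each member were named by r of log2 CPM over the 16 birds, as a description. For APOB they were TNRC18 (r = 0.876), NT5DC1 (0.843) and MAN2A1 (0.815). For MTTP they were TBC1D1 (0.90), PLIN2 (0.872), a lipid droplet coat protein that ranged from 73.3 to 1857 CPM, and CLSTN1 (0.853). LPL was nearest to SIX4 (0.876), LUZP1 (0.853) and GTPBP4 (0.835), and VLDLR to PLEKHA2 (0.799), CHD5 (0.769) and WLS (0.755). RBP4 was nearest to BPNT1 (0.894), FFAR4 (0.876), the fatty acid receptor gene next to it on chromosome 6, and EPAS1 (0.876). ZP1 was nearest to ABI2 (0.794), R3HDM1 (0.753) and ACOX3 (0.749). For TF and TCN2 the leading likeness rested on 1 bird. TF was nearest to MATN4 (0.837), C8A (0.767) and PRIM2 (0.743), and the r with MATN4 was 0.55 without the bird of the TF peak. MATN4, a matrilin of the extracellular matrix, had a median of 14.6 CPM and reached 2711 CPM. TCN2 was nearest to RIPOR1 (0.824), MRPL37 (0.823) and CHAF1A (0.813), and the r with RIPOR1 was 0.12 without replicate 1 at 5 mg/kg.

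Other genes of the same routes were read from 5 lists, and 0 of their tested genes passed edgeR's test in either dose comparison or between the number classes. The lists held 20, 15, 27, 2 and 12 tested genes, in the order given here. Of these 1, 0, 2, 1 and 4 had an unadjusted p under 0.05 at 5 mg/kg, beside 9.76% of all genes. At 0.5 mg/kg 0, 4, 1, 0 and 2 did, beside 8.25% of all genes. Of 20 lipoprotein assembly and lipid transfer genes, 9 differed upward and 11 downward at 5 mg/kg, with a median of -0.01, and 13 and 7 at 0.5 mg/kg. P4HB, the small subunit partner of MTTP, had the lowest p at 5 mg/kg (-0.45, edgeR adjusted p = 0.50), followed by CETP, which moves cholesteryl ester between lipoproteins (-0.48, adjusted p = 0.523). At 0.5 mg/kg these were PLTP (-0.53, edgeR adjusted p = 0.642) and MIA2 (0.30, adjusted p = 0.678). Of 15 lipoprotein receptor and lipase genes, 9 differed upward and 6 downward at 5 mg/kg, and 5 and 10 at 0.5 mg/kg. ANGPTL4, an inhibitor of LPL, held 91.5 ± 103 CPM in solvent birds (SD, n = 6) and 10.3 ± 4.31 at 0.5 mg/kg (n = 5), a log2 difference of -3.15 (edgeR adjusted p = 0.492). MYLIP, which marks lipoprotein receptors for breakdown, differed there by -0.52 (adjusted p = 0.537). DAB1 differed by 0.85 at 5 mg/kg (edgeR adjusted p = 0.555).

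Of 27 vitamin and metal carrier genes, 12 differed upward and 15 downward at 5 mg/kg, and 20 and 7 at 0.5 mg/kg, where the median was 0.16 beside -0.02 over all genes. BCO1, which splits carotene into retinal, held 232 ± 44.3 CPM in solvent birds (SD, n = 6) and 360 ± 73.9 at 0.5 mg/kg (n = 5), a difference of 0.63 (edgeR adjusted p = 0.484). SELENOP differed there by 0.39 (adjusted p = 0.678). At 5 mg/kg RDH10, which oxidises retinol, differed by -0.50 (edgeR adjusted p = 0.45) and ABCD4, which moves vitamin B12 out of the lysosome, by 0.44 (adjusted p = 0.476). Of the egg envelope and egg white list 2 genes were tested. ZP2 differed by 1.41 at 5 mg/kg (edgeR adjusted p = 0.553) and CTSD, a protease that processes yolk precursors, by -0.57 (adjusted p = 0.361), and at 0.5 mg/kg by 0.56 and -0.17. ZP2 averaged 1.54 ± 1.65 CPM in solvent birds (SD, n = 6) and 4.08 ± 4.03 at 5 mg/kg (n = 5). Its highest level of all birds, 11 CPM, lay in replicate 1 at 5 mg/kg, the bird with the ZP1 peak. Of 12 estrogen receptor and target genes, 5 differed upward and 7 downward at both doses. STC2 differed by -1.87 (edgeR adjusted p = 0.0692) and GREB1 by -0.76 (adjusted p = 0.179) at 5 mg/kg. At 0.5 mg/kg ESR2, an estrogen receptor, differed by 1.42 (edgeR adjusted p = 0.473) and NCOA1, a receptor coactivator, by 0.35 (adjusted p = 0.543). ESR2 averaged 35.1 CPM in solvent birds, 94.3 at 0.5 mg/kg and 33.7 at 5 mg/kg. NCOA1 averaged 29.7, 37.8 and 38.9 CPM in the same order.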

How the data were processed

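Liver RNA-seq of 16 birds was analysed from the authors' deposited estimated counts per transcript, which kallisto made, per the submitters' processing notes. Its release, transcriptome and build were not given in the sources used here. Rows, 47418 in all, were summed into 20308 genes and rounded, which changed a count by at most 0.5. Names and chromosomes came from the RefSeq gene table of Coturnix japonica 2.1, which matched 18900 genes, and no sequences were used. Kallisto divides reads shared by transcripts, so counts of overlapping genes and of rows of 1 gene are uncertain.

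Counts were tested with edgeR 4.0.16 (limma 3.58.1, R 4.3.3), with TMM scaling, filterByExpr (minimum count 10, minimum total 15), a quasi-likelihood fit of all 16 libraries by dose with 13 residual degrees of freedom, and Benjamini-Hochberg adjustment over all genes tested. Number class was added for that comparison, and a fit of 6 cells gave the interactions. CPM used TMM library sizes, and log2 CPM a prior count of 2. Correlation tests drew 1e+05 permutations, two-sided. Within a group, libraries correlated at 0.9275 to 0.9683 over genes. The fit was tested on simulated data.

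The 8 members are named in every comparison. The text also names the 3 named genes with the highest r with each, and, from each list in which none passed, the 2 with the lowest p at each dose. A result that this rule would name is not reported here. The 5 lists covered lipoprotein assembly, lipoprotein receptors and lipases, vitamin and metal carriers, egg proteins, and estrogen receptors and targets, and markers covered hepatocytes, adipocytes, macrophages, endothelium, muscle, erythroid cells, and oviduct and ovary. The members and lists were chosen with earlier results of these data known. Alternatives were DESeq2 1.42.0, limma-voom, other scalings and filters, each bird left out, replicate block and number class terms, fits within a number class, and the largest transcript row. The fit over rows was added after the data were seen.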

Additional observations from a re-analysis of the deposited data

Results flagged for a closer look

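In 24 groups of 5 or 6 birds (8 genes in 3 dose groups), 1 bird stood apart from its group by Dixon's test in 7. Chance gives about 1 in 20 groups only if values are normally distributed, which was not checked for these CPM. Over all genes the test marked 12.7% of solvent groups, 6.3% at 0.5 mg/kg and 8.02% at 5 mg/kg. At 5 mg/kg the birds were replicate 1 for ZP1 (537 CPM, the next bird 141) and TCN2 (304, the next 34.1), replicate 2 for LPL (80.7, the next 22) and RBP4 (5896, the next 3177), and replicate 3 for MTTP (811, the next 415). Replicate 3 at 0.5 mg/kg stood apart for TF (56944 CPM, the next 12565). Solvent replicate 3 did so for APOB (3498 CPM, the next 2640). Why these birds stand apart was not tested.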

How the results depend on the processing

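In all 120 combinations of an alternative and a comparison, 0 members passed the threshold, although DESeq2 gave no adjusted p for TCN2 at the 3 dose comparisons and for VLDLR at 0.5 mg/kg. Over all genes DESeq2 called 160 against edgeR's 6 at 5 mg/kg, 42 against 0 at 0.5 mg/kg, 26 against 0 between doses, 320 against 172 between number classes, and 16 and 4 against 0 for the interactions, and limma-voom called 2 at 5 mg/kg. Same-numbered birds of different doses correlated in their deviations at -0.084 to 0.203, so the numbers were not taken to pair them. With a replicate block 0 members were called, and ZP1 differed from solvent by 2.42 at 5 mg/kg (edgeR adjusted p = 0.24) and 1.64 at 0.5 mg/kg (adjusted p = 0.554). TCN2 at 5 mg/kg, 1.90 as reported, was 0.96 with that block, 0.88 with a block by bird number and 0.83 with limma-voom, and between doses, 2.06 as reported, it was 1.15, 1.19 and 1.02. ZP1 at 0.5 mg/kg was 1.36 with a block by bird number and 0.93 with limma-voom, and between doses 0.65 with a block by bird number. TCN2 was -1.60 between number classes with no dose term, and its interaction at 5 mg/kg -1.28 with limma-voom. No replicate block was possible between number classes, which the numbers define. The log2 differences of uncalled members changed sign as follows, and the cause was not tested. Within birds 1 to 3 at 0.5 mg/kg, MTTP was -0.12 and ZP1 -0.08. Within birds 4 to 6 at 5 mg/kg, MTTP was -0.10, VLDLR 0.06 and RBP4 -0.37, and between doses LPL was -1.01, TF 0.45 and ZP1 -0.18. From the largest transcript row alone, RBP4 was -0.11 at 0.5 mg/kg and -0.15 at 5 mg/kg, and VLDLR 0.15 at 0.5 mg/kg. Between doses LPL, near 0, was -0.21 with limma-voom, -0.04 with number class as a term, and -0.19 and -0.23 with a block by replicate and by bird number. With 1 bird left out, values at 0.5 mg/kg ran from -0.26 to 0.01 for VLDLR, -0.10 to 1.14 for TF and -0.01 to 0.93 for ZP1, and at 5 mg/kg from -0.22 to 0.26 for MTTP and -0.07 to 0.32 for RBP4. Between doses they ran from -0.79 to 0.28 for LPL, -0.75 to 0.49 for TF, 0.30 to 2.32 for TCN2 and 0.36 to 1.65 for ZP1, and between number classes from -0.48 to 0.04 for LPL. Depth limits VLDLR most, at 60 to 242 counts a library.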
